A study of Homo sapiens with 6 samples.

Results

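UQCRH encodes the hinge subunit of respiratory complex III, and its RNA was examined here beside that of 7 other complex III genes, UQCRC1, UQCRC2, UQCRFS1, CYC1, UQCRB, UQCRQ and UQCC, in ovarian cancer clones made with shRNA against Hic-5 or with a Hic-5 cDNA. The members were taken as every non-control probe whose gene name on the array was that of a member, which gave 8 of 29245 gene names and 11 of the 41000 probes, 2 for UQCRH and 9 for the other genes. UQCC is listed on the array under its current name, UQCC1, and was matched through that synonym. UQCRH was chosen by its rise in the SKOV3 comparison, so its values there are a description without a test, and the other genes were chosen by function.

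Complex III, the cytochrome bc1 complex, sits in the inner mitochondrial membrane, takes electrons from ubiquinol and hands them to cytochrome c while it pumps protons. Its catalytic centres are cytochrome b, which is encoded by mitochondrial DNA, cytochrome c1 and the Rieske iron-sulfur protein, and the remaining subunits are small or structural and encoded in the nucleus. The hinge protein is a small acidic subunit that sits against cytochrome c1 near the site where cytochrome c docks. UQCC1 is not a subunit of the finished complex but an assembly factor for cytochrome b.

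RNA levels come from 6 arrays of the Agilent Whole Human Genome design, on which an RNA of a modified clone and that of its Ctrl were labelled with Cy3 and Cy5. In SKOV3, an established ovarian adenocarcinoma line, the stable clones sh-S1 and sh-S2, which carry shRNA against Hic-5 and were made with pLKO.1-puro lentivirus and puromycin selection, were compared with a mock clone that carried a scrambled shRNA in the same vector. In A2780s, another ovarian cancer line, the stable clone pCMV-Hic-5, which carries tagged human Hic-5 cDNA under the CMV promoter of pCMV6, was compared with a clone transfected with the empty vector, both under neomycin selection. Each comparison was hybridized on 2 arrays with the dyes exchanged, and both arrays of a pair carry the same RNAs and count as 1 replicate, so SKOV3 had 2 replicates, the clones, which share their Ctrl RNA. A2780s had 1 and has no replicate check. Nothing states that a clone was cultured or extracted more than once, so p-values measure only the spread between these RNAs. The dye-swapped arrays were averaged first, so neither the SDs over clones nor the p-values hold the spread between the dyes. In bulk RNA a smaller share of cells that express a gene and less RNA per cell cannot be told apart.

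The median signal over local background was 373 to 530.5 in Cy3 but only 9.52 to 25.5 in Cy5 on the SKOV3 arrays, and 325 to 568 over both dyes on the A2780s arrays, which lay on another slide. Each of the 11 member probes was well above background in both RNAs on all 6 arrays, and no member spot was saturated. TGFB1I1, which encodes Hic-5 and is read by probe A_23_P141055, had log2 ratios to the Ctrl of -0.16 and 0.12 on the sh-S1 arrays and -0.12 and 0.28 on the sh-S2 arrays. By these normalized ratios TGFB1I1 was thus not lower in the RNAs labelled as those of the shRNA clones. Every direction below rests on those labels. On the log2 level scale it was at 8.22 in the SKOV3 Ctrl, 8.45 in sh-S1 and 8.06 in sh-S2, against 12.78 in the A2780s Ctrl, and the probe was well above background in all of these RNAs. Its signal over local background in Cy3 was 662 in sh-S1 and 472 in sh-S2, against 717 and 611 in the Ctrl. In Cy5 it was 8.44 and 13.2, against 26.1 and 16.4. Within a dye the median of all probes tested was also lower in the clones, at 0.511 to 0.916 times the Ctrl. The Cy5 signals of A_23_P141055 lay below the offset of 50 added to each signal, which draws ratios towards 0, so a fall there is not resolved. In pCMV-Hic-5 the same probe gave log2 ratios of 4.05 and 2.60. Of the ovarian and epithelial markers, PAX8, KRT8, KRT18 and ERBB2 were well above background in all 8 SKOV3 and all 4 A2780s channels. KRT7 and WT1 were so in 8 and 7 of 8 SKOV3 channels and each in 1 of 4 A2780s channels. EPCAM was so in 4 of 8 SKOV3 and 4 of 4 A2780s channels, and MUC16 in 5 of 8 SKOV3 and 4 of 4 A2780s channels. Of the endothelial markers, PECAM1 was well above background in 1 of 8 SKOV3 and 0 of 4 A2780s channels and VWF in 4 of 8 and 2 of 4, and ALB of hepatocytes was so in 2 of 8 and 4 of 4. PTPRC of leukocytes was well above background in 4 of 8 SKOV3 and 0 of 4 A2780s channels, and CD14 in all 12. Of all non-control spots on the SKOV3 arrays, 88.8 to 94.5% were well above background in Cy3 and 43.7 to 63.6% in Cy5. On the A2780s arrays 74.3 to 88.0% were so over both dyes. These counts alone therefore do not show that a marker was expressed.

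The probes that read UQCRH lie on chromosome 1 and both match the plus strand of GRCh37, the build of the array design. They are shown because the largest difference of the family rests on them, beside the probe of the core subunit UQCRC1 (chromosome 3, minus strand), which did not pass the test in SKOV3. Each has 60 bases, written 5′ to 3′.
UQCRH A_24_P102769, chr1:46775859-46775918: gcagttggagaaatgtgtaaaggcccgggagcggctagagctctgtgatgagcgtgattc
UQCRH A_32_P54137, chr1:46775954-46782248: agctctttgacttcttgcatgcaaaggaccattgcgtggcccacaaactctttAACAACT
UQCRC1 A_23_P132675, chr3:48637106-48637517: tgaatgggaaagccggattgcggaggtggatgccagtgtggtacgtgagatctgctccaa

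Probe A_32_P54137 covers 6295 bases of the genome with its 60, and the UQCRC1 probe covers 412, so both are exonic and cross at least 1 intron, while A_24_P102769 covers 60 and is contiguous on the genome. Whether these exons are coding or untranslated is not given with the probes. The array design assigns A_32_P54137 also to UQCRHL, an intronless copy of UQCRH, so RNA of the copy could not be told apart from that of UQCRH on this probe. A_24_P102769 carries no such assignment, but the design lists 0 RefSeq accessions for it, against 4 for A_32_P54137. Whether A_24_P102769 also reads RNA of the copy was not tested. No probe of the array is named for UQCRHL. The capitals mark the last 7 bases of A_32_P54137, to which the account of the nearest probes returns.

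Before any normalization, UQCRH was lower in the SKOV3 Ctrl than in both clones. In the Ctrl its signals still lay above the median signal of each array in the same dye. Read in Cy3 by A_24_P102769, the signal over local background was 2861 and 2491 in the Ctrl, 76347 in the RNA labelled sh-S1 and 91722 in the RNA labelled sh-S2. Read in Cy5, which was dim on these arrays, the same probe gave 116 and 181 in the Ctrl, 3748 in sh-S1 and 8499 in sh-S2. That the Ctrl and clone signals did not overlap in either dye follows from choosing UQCRH by this contrast. A_32_P54137 gave 4155 and 4077 in the Ctrl in Cy3 against 97615 in sh-S1 and 161115 in sh-S2, and 262 and 761 in the Ctrl in Cy5 against 15693 and 19003. Set against each other within a dye and clone, the clone signal was 23.5 to 60.0 times that of the Ctrl over both UQCRH probes. The median of all probes tested was 0.511 to 0.916 times by the same measure, and the 9 probes of the other complex III genes lay between 0.112 and 1.98 times. In A2780s the UQCRH signals were bright in both RNAs, at 111122 and 114034 in pCMV-Hic-5 and 122288 and 124650 in the Ctrl in Cy3, and at 257339 and 260240 in pCMV-Hic-5 and 221698 and 210401 in the Ctrl in Cy5.

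**Figure D1:**
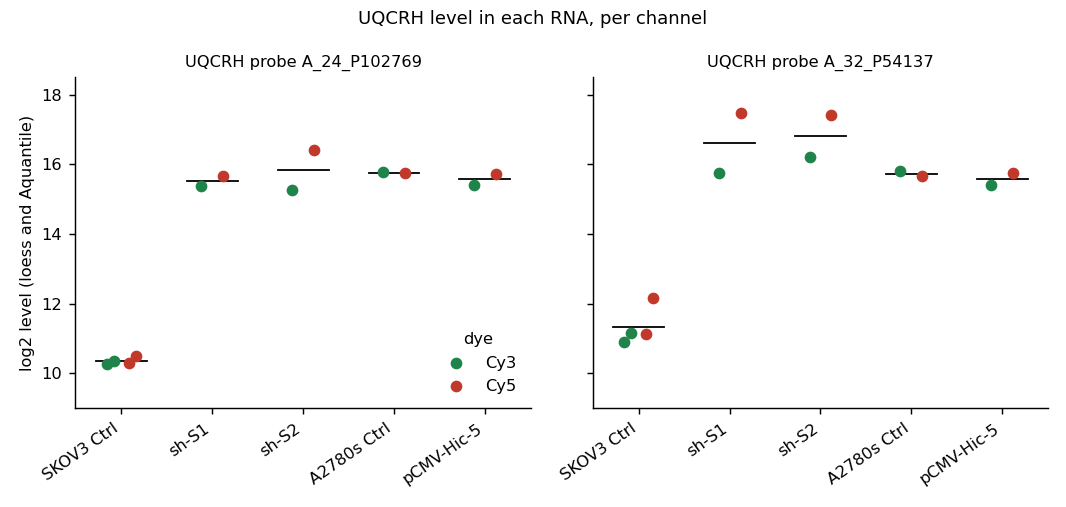
Log2 level of the UQCRH probes in every channel (loess within and Aquantile between arrays), by RNA on the x axis, with Cy3 in green, Cy5 in red and the mean of an RNA as a line. The 4 SKOV3 Ctrl channels sit between 10.28 and 12.17, and all 8 other channels of each probe lie at 15.27 or above.

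After normalization, the log2 ratio of UQCRH to the Ctrl by A_32_P54137, the brighter probe, was 6.59 in sh-S1 when that RNA carried Cy5 and 4.63 when it carried Cy3. In sh-S2 it was 6.24 and 4.05. A_24_P102769 gave 5.37 and 5.06 for sh-S1 and 6.03 and 4.79 for sh-S2. UQCRH was thus higher on 4 of 4 arrays by both probes, and the arrays with the clone in Cy5 gave the larger ratios. The mean over the clones was 5.38 ± 0.33 (SD over 2 clones), or 41.5-fold, by A_32_P54137 and 5.31 ± 0.14 (SD over 2 clones), or 39.7-fold, by A_24_P102769. With the clone in Cy5 the former gave 6.41 and with the clone in Cy3 4.34, and the latter gave 5.70 and 4.92. The difference between the clones had opposite signs by the probes, with sh-S2 minus sh-S1 at -0.47 by A_32_P54137 and 0.20 by A_24_P102769. The probes held ranks 1 and 2 of the 24935 tested in SKOV3 by log2 ratio, which is how UQCRH came to be chosen.

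In pCMV-Hic-5, a comparison that had no part in that choice, UQCRH had log2 ratios of -0.05 and -0.23 by A_32_P54137 and of -0.04 and -0.34 by A_24_P102769. The means, -0.14 and -0.19, were short of the 1.5-fold used for this comparison. There is no test with 1 replicate.

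On the log2 level scale, UQCRH by A_24_P102769 was at 10.36 in the SKOV3 Ctrl, 15.51 in the RNA labelled sh-S1, 15.84 in that labelled sh-S2, 15.75 in the A2780s Ctrl and 15.56 in pCMV-Hic-5. By A_32_P54137 the levels were 11.34, 16.62, 16.81, 15.73 and 15.58 in the same order. The RNA that stood apart by either probe was the SKOV3 Ctrl. The 4 other RNAs lay within the spread of their channels by A_24_P102769, between 15.27 and 16.41 in the clones and between 15.40 and 15.77 in the A2780s RNAs, so their order is not resolved. By A_32_P54137 the channels of the clones reached from 15.76 to 17.47 and those of the A2780s RNAs from 15.42 to 15.80, which also overlap. Compared with the A2780s Ctrl, the SKOV3 Ctrl was lower in UQCRH by a log2 difference of -5.39, or 42.0-fold, by A_24_P102769 and of -4.39, or 20.9-fold, by A_32_P54137. Without normalization between arrays the latter difference was -7.10. These RNAs lay on different slides, so the slide cannot be told apart from the cell line, and this difference shares the SKOV3 Ctrl with the clone ratios.

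**Figure D2:**
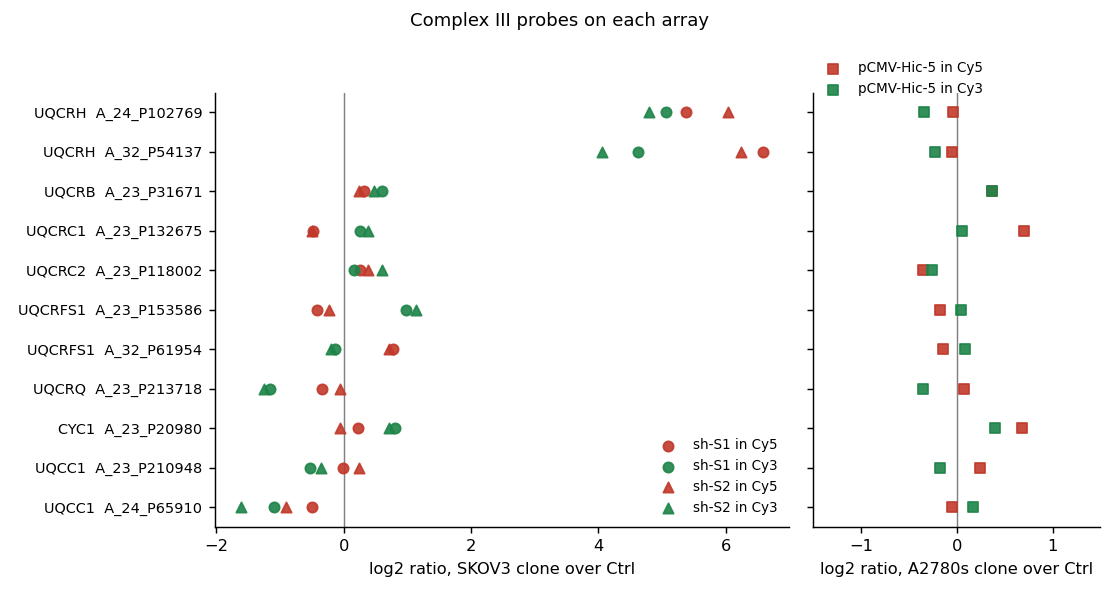
Log2 ratio of clone over Ctrl (x axes) for all 11 complex III probes (rows), on the 4 SKOV3 arrays (left, circles sh-S1, triangles sh-S2) and the 2 A2780s arrays (right), with the clone in Cy5 in red and in Cy3 in green. The UQCRH probes lie between 4.05 and 6.59 on the SKOV3 arrays and the other probes between -1.61 and 1.13.

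The other complex III genes did not share the size of the UQCRH difference, by which UQCRH was chosen. Of 18823 genes or unnamed probes tested in SKOV3, 2 lay above a log2 ratio of 5, so an excess over other genes follows from that choice. A gene was represented by its brightest probe and called in SKOV3 when limma's p, adjusted by Benjamini-Hochberg over all probes, was 0.05 or less and the change 2-fold or more. On each SKOV3 array the median of the 7 genes lay between -0.05 and 0.38 on the log2 ratio scale, and UQCRH exceeded it by 6.36 and 4.47 on the sh-S1 arrays and by 6.29 and 3.66 on the sh-S2 arrays. With the arrays of each clone averaged before the median was taken, the excess was 5.40 in sh-S1 and 4.88 in sh-S2, a mean of 5.14 ± 0.37 (SD over 2 clones). Of the 7 genes, 0 were called higher, beside 3.40% of all 18823 genes tested, and 1 was called lower, beside 4.53% of all genes. Of the 7, 3 rose and 2 fell at the adjusted p alone, which 16.3% of all genes passed as higher and 16.5% as lower, and 4 of these 5 did not reach 2-fold. On the A2780s arrays the median of the 7 genes was 0.07 and 0.05, and UQCRH differed from it by -0.12 and -0.28.

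Of the catalytic subunits, CYC1 (probe A_23_P20980), which is cytochrome c1 and the partner of the hinge protein, had log2 ratios of 0.22 and 0.80 in sh-S1 and -0.06 and 0.72 in sh-S2. It was higher on 3 of 4 arrays, with a mean of 0.42 ± 0.13 (SD over 2 clones, adjusted p = 0.0181 by limma), short of 2-fold. UQCRFS1, the Rieske protein, is read by probes that moved in opposite ways with the dyes. Its brighter probe A_32_P61954 gave 0.77 and 0.71 with the clones in Cy5 and -0.13 and -0.19 with the clones in Cy3, whereas A_23_P153586 gave -0.41 and -0.23 in Cy5 and 0.98 and 1.13 in Cy3. Their means were nevertheless close, at 0.29 (adjusted p = 0.0562 by limma) and 0.37 (adjusted p = 0.0287 by limma). Each orientation alone would give UQCRFS1 a sign that depends on the probe, and only the average over both dyes is reported. Of the 9 probes of the other genes, 4 had opposite signs in the dye orientations, and of all probes tested 44.0% did.

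Of the core subunits, UQCRC1 had log2 ratios of -0.48 and -0.49 with the clones in Cy5 and 0.26 and 0.38 with the clones in Cy3, and a mean of -0.08 ± 0.04 (SD over 2 clones, adjusted p = 0.584 by limma). UQCRC2, the other core subunit, was higher on 4 of 4 arrays, at 0.25 and 0.17 in sh-S1 and 0.39 and 0.60 in sh-S2, with a mean of 0.35 ± 0.20 (SD over 2 clones, adjusted p = 0.0488 by limma). Of the small subunits that pack against cytochrome b, UQCRB was higher on 4 of 4 arrays by 0.24 to 0.61, with a mean of 0.41 ± 0.08 (SD over 2 clones, adjusted p = 0.0173 by limma). UQCRQ was lower on 4 of 4 arrays, at -0.34 and -1.15 in sh-S1 and -0.05 and -1.25 in sh-S2, with a mean of -0.70 ± 0.07 (SD over 2 clones, adjusted p = 0.00177 by limma). UQCRB and UQCRQ thus moved in opposite directions, both short of 2-fold.

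The called gene was the assembly factor UQCC1. Its brighter probe A_24_P65910 gave log2 ratios of -0.50 and -1.09 in sh-S1 and -0.91 and -1.61 in sh-S2. It was lower on 4 of 4 arrays, with a mean of -1.03 ± 0.33 (SD over 2 clones, adjusted p = 0.00128 by limma). The other UQCC1 probe, A_23_P210948, gave -0.01, -0.52, 0.24 and -0.36 on the same arrays, with a mean of -0.16 (adjusted p = 0.29 by limma). With the mean over both probes, or with the clones in Cy5 alone, UQCC1 was not called, so its call rests on 1 probe and lies just past the 2-fold threshold.

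**Figure D3:**
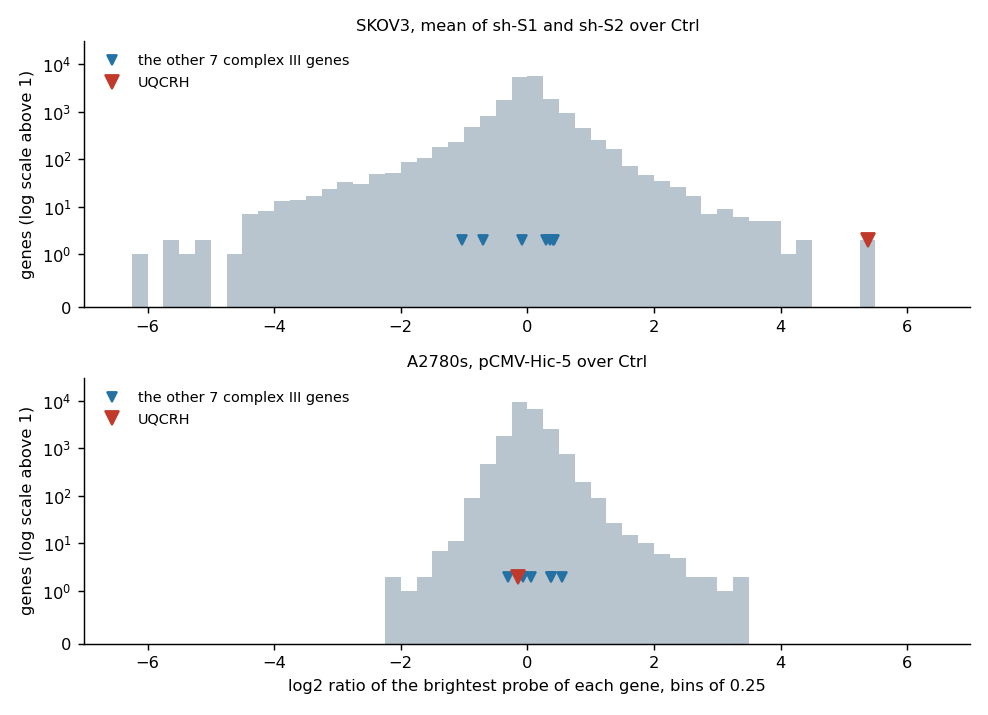
Number of genes (y axis, log scale above 1) by log2 ratio of clone over Ctrl (x axis, bins of 0.25) in SKOV3 (top) and A2780s (bottom), with UQCRH as a red and the other 7 complex III genes as blue triangles whose height has no meaning. In SKOV3 the 7 genes lie between -1.03 and 0.42 and UQCRH at 5.38, and in A2780s all 8 lie between -0.31 and 0.54.

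In pCMV-Hic-5, 0 of the 7 other genes reached 1.5-fold with both arrays in 1 direction, beside 3.43% of 22110 genes called higher and 1.46% called lower. CYC1 came nearest, with log2 ratios of 0.68 and 0.40 and a mean of 0.54. UQCRC1 gave 0.70 and 0.05, and UQCRB 0.37 on both arrays. UQCRC2 was at -0.35 and -0.26. The remaining genes, UQCRFS1, UQCRQ and UQCC1, had means between -0.14 and 0.06 and opposite signs on the arrays.

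The difference between the Ctrl RNAs of the lines was likewise large for UQCRH and smaller for the other genes. For the 7 genes, the log2 level in the SKOV3 Ctrl minus that in the A2780s Ctrl lay between -0.58 for UQCRC2 and 1.25 for UQCC1. Of the 7, 1 was at least 2-fold higher in the SKOV3 Ctrl, beside 11.3% of 17891 genes, and 0 were at least 2-fold lower, beside 8.62%. UQCC1 by A_24_P65910 was at 10.62 in the SKOV3 Ctrl and between 9.37 and 9.63 in the other 4 RNAs. By the other UQCC1 probe, A_23_P210948, the SKOV3 Ctrl at 9.31 lay within the range of the other RNAs, 8.94 to 9.35. The SKOV3 Ctrl thus stood apart for UQCC1 by 1 of its probes only, in the direction opposite to UQCRH. UQCRQ was at 15.96 in the SKOV3 Ctrl and between 15.04 and 15.28 elsewhere, a smaller step in the direction of UQCC1.

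The complex III genes outside the member list were read from a list of the remaining subunits, assembly factors and cytochrome c. Of its 10 genes, 8 were tested in SKOV3 and 0 were called, beside 3.40% of all genes called higher and 4.53% lower. The median log2 ratio was 0.32, beside a median of 0.00 over all genes. UQCR10, a small subunit beside cytochrome c1, was higher on 4 of 4 arrays, at 0.77, 0.96, 0.39 and 0.80, with a mean of 0.73 ± 0.19 (SD over 2 clones, adjusted p = 0.00248 by limma). CYCS, the electron carrier that complex III reduces, was at 0.96 and 0.96 in sh-S1 and 0.54 and 0.38 in sh-S2, with a mean of 0.71 ± 0.35 (SD over 2 clones, adjusted p = 0.00727 by limma). LYRM7, a chaperone of the Rieske protein, had a mean of 0.50 (adjusted p = 0.0068 by limma), and BCS1L, which inserts that protein into the complex, -0.20 (adjusted p = 0.156 by limma). UQCC2 and UQCC3, which act with UQCC1 in the assembly of cytochrome b, gave 0.33 and 0.15, with an adjusted p of 0.104 and 0.344 from limma. UQCR11 was not tested because its brightest probe had a spot with an outlier flag.

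MT-CYB, cytochrome b itself, listed on the array as CYTB (probe A_24_P557534), was the complex III gene that differed most between the clones. Its log2 ratio was 0.68 on both sh-S1 arrays and -0.86 and -0.59 on the sh-S2 arrays. The sign therefore followed the clone and not the dye, and the mean of -0.02 ± 1.00 (SD over 2 clones, adjusted p = 0.964 by limma) describes neither clone. In pCMV-Hic-5 it was 0.78 and 0.60. It was the call of this list by the 1.5-fold rule among 9 genes tested, beside 3.43% of all genes called higher. Nuclear copies of mitochondrial sequence could share signal with this probe, which was not tested.

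Beyond complex III, the closest comparison was with complexes I and IV and ATP synthase. Of 64 genes, 57 were tested in SKOV3, 4 were called higher, beside 3.40% of all genes, and 0 lower, beside 4.53%, and the median log2 ratio was 0.19. The called genes were NDUFB8 at 1.40 ± 0.18 (SD over 2 clones, adjusted p = 0.000136 by limma), NDUFA4 at 1.20, NDUFA5 at 1.19 and NDUFV3 at 1.15, each higher on 4 of 4 arrays. NDUFA4 was first described in complex I and is now counted with complex IV, and the others belong to complex I. The other 7 genes of the list were left out of the test because a spot of their brightest probe carried an outlier flag. In pCMV-Hic-5, 2 of the 64 genes were called higher, near the 3.43% of all genes, NDUFS8 at 0.75 and NDUFB11 at 0.60, both complex I subunits and both higher on both arrays, with a median over the list of -0.02.

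Of complex II, 0 of 6 genes were called in either line. Of all genes, 3.40% were called higher and 4.53% lower in SKOV3, and 3.43% and 1.46% in A2780s. Lists this short would hold few calls or none at those shares. SDHC, which anchors the complex in the membrane, was at 0.64 in SKOV3 (adjusted p = 0.00772 by limma). Coenzyme Q synthesis makes ubiquinone, the electron carrier whose reduced form complex III oxidizes. Of its genes, 0 of 13 were called in either line, beside the same shares of all genes. They ranged from -0.34 to 0.44 in SKOV3 and from -0.43 to 0.39 in A2780s. The regulators of mitochondrial biogenesis held no called gene among 8 tested of 10 in SKOV3, beside the same SKOV3 shares. Their highest ratios there were those of the mitochondrial transcription factors TFB1M (0.87, adjusted p = 0.00351 by limma), TFB2M (0.61, adjusted p = 0.00378 by limma) and TFAM (0.45, adjusted p = 0.0108 by limma). GABPA, a nuclear factor for respiratory chain promoters, was at -0.15 (adjusted p = 0.315 by limma), and NRF1 and PPARGC1A were not well above background in SKOV3 and were not tested.

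**Figure D4:**
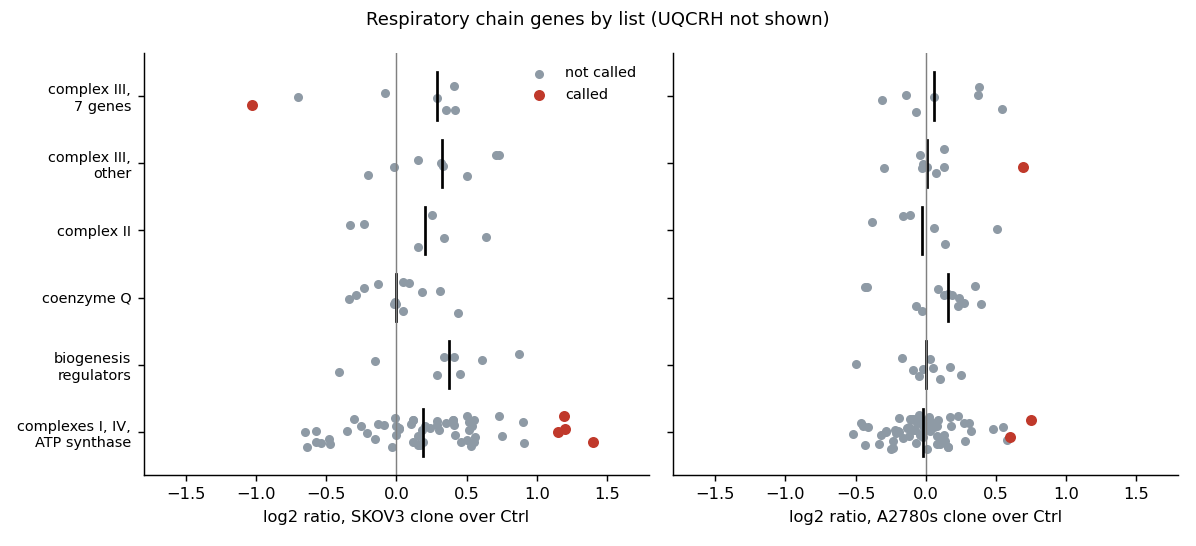
Log2 ratio of clone over Ctrl (x axes) for each tested gene of 6 lists of respiratory chain genes, in SKOV3 (left) and A2780s (right), with called genes in red and the median of a list as a black line. UQCRH is not shown, and the other genes lie between -1.03 and 1.40 in SKOV3 and between -0.52 and 0.75 in A2780s.

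The promoter of UQCRH is shown because the respiratory chain genes are known to share binding sites of nuclear factors, GABPA among them. The 250 bases before its start, from RefSeq with GRCh38.p14, chr1:46303448-46303697 on the plus strand, hold 1 match to CCGGAAG, the core of the GABPA site, marked by capitals and read on the opposite strand.
UQCRH promoter: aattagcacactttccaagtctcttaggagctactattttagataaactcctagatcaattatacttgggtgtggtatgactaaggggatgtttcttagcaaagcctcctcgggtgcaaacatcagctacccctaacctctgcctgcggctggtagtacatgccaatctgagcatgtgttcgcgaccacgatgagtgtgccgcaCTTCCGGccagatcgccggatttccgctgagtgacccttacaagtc

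On either strand of 300-base promoters, CCGGAAG was present in 10.3% of 35116 promoters and in 2 of the 6 member promoters in the reference table, those of UQCRH and UQCRQ. The NRF1 site, searched as its palindrome of 10 letters with 1 of them free, was present in 5.78% of promoters and in 3 of the 6, those of UQCC1, UQCRC1 and UQCRFS1. The UQCRH promoter held no match to the latter, so the motifs do not overlap there. UQCRH and UQCRQ, which hold the same motif, had SKOV3 log2 ratios of 5.38 and -0.70.

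The genes next to UQCRH on chromosome 1 were compared to see how far along the chromosome the difference reached. The 5 protein-coding genes with a probe on each side, in the order of the reference annotation, have probes from -125 to 248 kb of the UQCRH probe on GRCh37. Of these 10 genes, 9 were tested in SKOV3 and 0 were called with limma, beside 3.40% of all genes called higher and 4.53% lower. At the adjusted p alone 1 passed, beside 16.3% of all genes as higher and 16.5% as lower. LRRC41, the neighbour on the left, had log2 ratios of 0.14, -0.02, -0.07 and -0.36 (mean -0.08, adjusted p = 0.661 by limma). NSUN4, a mitochondrial ribosomal RNA methyltransferase and the neighbour on the right, had -0.04, -0.07, -0.12 and 0.02 (mean -0.05, adjusted p = 0.736 by limma). TSPAN1, a tetraspanin, was the gene that passed the adjusted p, at -0.82, -0.98, -0.92 and -0.99 (mean -0.93, adjusted p = 0.000488 by limma), less than 2-fold and opposite in direction to UQCRH. RAD54L, LURAP1, POMGNT1, FAAH, DMBX1 and MKNK1 had means between -0.26 and 0.22 and an adjusted p of 0.123 or more from limma. KNCN was not well above background and was not tested. In pCMV-Hic-5 the means of the neighbours lay between -0.35 and 0.58. There 0 were called, beside 3.43% of all genes called higher and 1.46% lower. By the brightest probe of each of these genes, a log2 ratio above 0.56 was seen on the SKOV3 arrays for UQCRH alone.

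**Figure D5:**
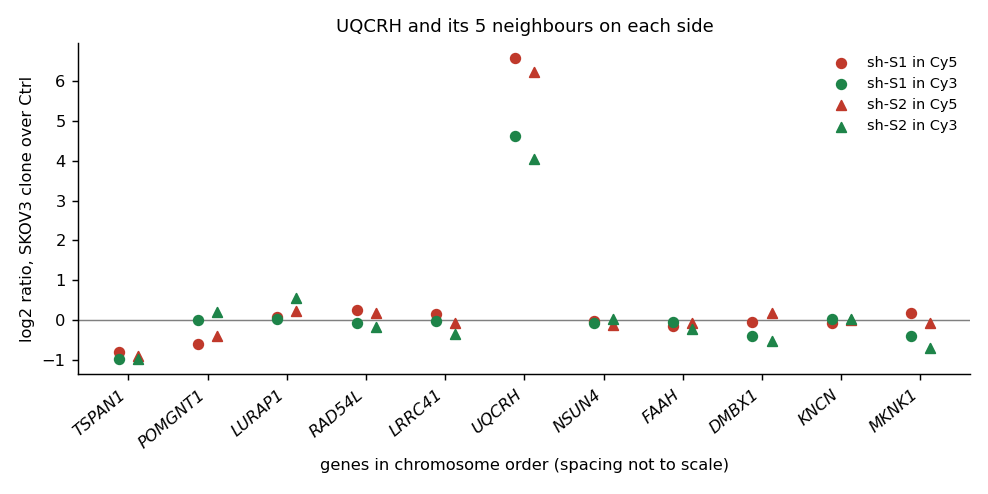
Log2 ratio of clone over Ctrl on each SKOV3 array (y axis) for UQCRH and its 5 neighbours on each side in chromosome order (x axis, spacing not to scale), with circles for sh-S1, triangles for sh-S2, red for the clone in Cy5 and green for Cy3. UQCRH lies at 4.05 to 6.59 and the neighbours at -0.99 to 0.56.

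The probes most like UQCRH were found by the Euclidean distance between log2 levels over the 5 RNAs, each probe centred on its own mean, among 31344 probes well above background in at least 1 RNA. The RNAs share slides and the SKOV3 Ctrl, and these values are a description. The nearest was A_24_P608790 at a distance of 0.64, closer to A_32_P54137 than the other UQCRH probe at 1.12. The array design gives A_24_P608790 no gene, accession or position. Its log2 ratios were 5.99 and 4.65 in sh-S1 and 5.86 and 4.74 in sh-S2, and 0.11 and -0.08 in pCMV-Hic-5, and its levels were 10.28 in the SKOV3 Ctrl and between 15.12 and 15.71 in the other RNAs. It and UQCRH were the genes or unnamed probes above a log2 ratio of 5 in SKOV3, where the next lay at 4.35. Its first 15 bases are given because they begin with the capitals that end A_32_P54137.
A_24_P608790, first bases: AACAACTtgaaataa

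These 7 bases open 4 of the 41000 probes. Whether A_24_P608790 reads the UQCRH transcript was not tested.

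The next in order were LIPA, the lysosomal acid lipase, at a distance of 1.21, EMP1, an epithelial membrane protein, at 1.25, TBX2, a T-box transcription factor, at 1.28 and C1orf54 at 1.28. Their levels in the SKOV3 Ctrl were 10.40 for LIPA, 10.43 for TBX2 and 9.02 for C1orf54. In the other 4 RNAs LIPA was between 13.42 and 14.93, TBX2 between 13.43 and 14.51 and C1orf54 between 13.06 and 13.52. EMP1 was lower in the SKOV3 Ctrl than in the A2780s Ctrl by a log2 difference of -4.74 and lay between 16.04 and 16.74 in the RNAs other than the SKOV3 Ctrl. That each of the 4 genes was lowest in the SKOV3 Ctrl, as UQCRH was, follows from choosing them by these same levels. EMP1 has another probe with a log2 ratio of 0.82 in SKOV3, against 4.35 by the probe named here. LIPA and EMP1 were called lower in pCMV-Hic-5, at -0.86 and -0.70, where UQCRH was at -0.14.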

How the data were processed

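The authors deposited the intensity of each spot and its local background in Cy3 and Cy5, as written by Agilent Feature Extraction (10.7.3.1 in the file headers, 8.5.1.1 in the submitters' processing notes), without normalization, together with processed intensities. The log10 ratios (Cy5 over Cy3) that the authors deposited were checked against the series values and matched to within rounding, and were not otherwise used. In R 4.3.3 with limma 3.58.1, normexp (offset 50) was used against background, fitted without spots flagged for their background, and spots with a local background over 1000 (39 on 1 A2780s array) were left out. Ratios were normalized by loess within each array, control spots and outlier-flagged spots (121 to 362 per array) were left out, spots of a probe were averaged, and the log2 ratios were set as clone over Ctrl. Channel levels were also normalized between arrays by Aquantile.

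A probe was tested where it stood well above background either in every Ctrl channel of the line or in a clone's RNA on the pair of arrays that carry it, 24935 in SKOV3 and 30504 in A2780s. Dye-swapped arrays were averaged, and lmFit and eBayes tested the mean of the 2 SKOV3 clones against 0. This leaves out the spread of the Ctrl and that between the dyes. Calls were made at a Benjamini-Hochberg adjusted p of 0.05 and 2-fold in SKOV3, which gave 743 probes higher and 1038 lower, and at 1.5-fold with both arrays in the same direction in A2780s, without a test, which gave 994 and 403. Of 41000 probes, 28078 were named through their RefSeq accession and the GRCh38.p14 annotation, the others by the array's name. The number of arrays and the dim Cy5 channel limit the precision.

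The genes named were all members with every probe, TGFB1I1, 5 neighbours on each side of UQCRH, the 5 nearest genes, and up to 3 called genes in each direction per list and line. The other genes of the wider lists that are named with values were chosen for their roles or after their values were seen. The members and lists were chosen with earlier results of these data known. In the list of complexes I and IV and ATP synthase, 1 gene is not reported here and was left out of the counts.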

Additional observations from a re-analysis of the deposited data

Results flagged for a closer look

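The ratio of MT-CYB, the mitochondrial gene for cytochrome b, went opposite ways in the SKOV3 clones. Both arrays of the RNA labelled sh-S1 gave a log2 ratio of 0.68, and those of sh-S2 gave -0.86 and -0.59, a difference of -1.41 between sh-S2 and sh-S1. Each clone is 1 RNA, and the difference was not tested. Of 30 probes of members, neighbours and further complex III genes that were compared in this way, this was the only such case.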

How the results depend on the processing

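UQCRH kept its direction in SKOV3 under each alternative run. By A_32_P54137, its log2 ratio was 6.41 from the Cy5-labelled clones only and 4.34 from the Cy3-labelled ones, against 5.38 with both. Its excess over the median of the other 7 complex III genes was 6.33 and 4.06, against 5.14 with both. Without either clone the ratio lay between 5.14 and 5.61 and the excess between 4.88 and 5.40. With processed signals, median centring or normexp fitted on all spots, both values by this probe moved by less than the spread between the clones. The other probe, A_24_P102769, moved from 5.31 to 5.53 with processed signals, more than its SD over the clones of 0.14. In A2780s the UQCRH ratio stayed between -0.25 and -0.05 by A_32_P54137 and between -0.34 and -0.04 by A_24_P102769. The call of UQCC1 was lost, for 0 called genes, from the Cy5-labelled clones only and with the mean over probes, and from the Cy3-labelled ones 2 genes were called, both lower. In A2780s, 2 of the other complex III genes were called from the Cy5-labelled clone only. The SKOV3 log2 ratios of UQCRB, CYC1 and UQCRC2 were 0.41, 0.42 and 0.35. They were 0.21, 0.23 and 0.13 with median centring and 0.61, 0.51 and 0.46 with processed signals, so their size depended on the processing. UQCRQ and UQCC1 by A_24_P65910 stayed lower, at -0.80 and -1.19 with median centring and -0.72 and -1.24 with processed signals. Processed signals raised the probes called in SKOV3 from 1781 to 4322, and the Cy5-labelled clone taken by itself those in A2780s from 1397 to 3311. Alternatives added after seeing the data gave 1 neighbour of UQCRH called, with processed signals or with median centring, against 0, and 2 called genes of the wider lists in SKOV3 with median centring, against 4, and 6 in A2780s with processed signals, against 3. The difference in UQCRH between the Ctrl RNAs was -7.10 without Aquantile and -5.96 with processed signals, against -4.39. The causes were not tested. Each ratio already sets a clone against the Ctrl on the same array, and the dye-swapped arrays of a clone are averaged into 1 replicate. The dim Cy5 channel in SKOV3 limits the precision of every ratio there.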
